A study of Homo sapiens with 12 samples.

Results

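The genes described here are 49 mesenchymal and extracellular matrix genes. They are transcription factors, adhesion molecules, matrix proteins, proteases and cytoskeletal proteins listed by name. The list was chosen with earlier results of these data known. Its shares of called genes, set below beside those of all genes, are therefore descriptive only. They were read from both deposited gene tables, which together list 33331 genes, and 44 of the 49 are listed in both tables. RNA-seq was done on SW480, a line from a human colon adenocarcinoma, with 3 libraries in each of 4 groups. The first group was an ALDH1B1 knockout clone expressing EGFP, and the second was the same clone expressing ALDH1B1 again. The third was the parental line given 2 µM of an inhibitor selective for ALDH1B1 for 24 h, and the fourth was the parental line given DMSO. ALDH1B1 is a mitochondrial aldehyde dehydrogenase, and the pairs ask what its loss and what its inhibition do to the transcriptome. Only 1 knockout clone was used, the sources used here do not give the promoter that drives EGFP or ALDH1B1, and all cells were grown in RPMI medium with serum.

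Epithelial cells can take on mesenchymal traits, a change known as the epithelial-mesenchymal transition. Transcription factors of the ZEB, SNAI and TWIST families repress E-cadherin and other junction genes in it, while intermediate filament, contractile and matrix genes such as VIM, ACTA2 and FN1 are turned on. In colorectal tumours most of the fibrillar collagen comes from fibroblasts of the stroma, which a cell line lacks, while basement membrane chains and matricellular proteins are also made by the carcinoma cells.

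Each library held between 32617089 and 39018926 gene reads. ALDH1B1 itself averaged 18.4 ± 0.437 CPM in the EGFP clone and 101 ± 3.20 CPM in the ALDH1B1 clone, and 50.4 ± 0.529 CPM with the inhibitor and 49.5 ± 3.83 CPM with DMSO (CPM are reads scaled to library size, on 1 scale over the 12 libraries, with SD, n = 3 each). The ALDH1B1 clone thus held more of this transcript than the parental line. EGFP minus ALDH1B1 therefore compares the knockout with an RNA level above the parental one. EGFP library 3 and DMSO library 2 stood apart from the others of their groups. Chi-square per degree of freedom, over the tested genes with enough reads in the pair compared, was 10.8 and 15.9 for EGFP library 3 against the others, and 3.98 between those. It was 10.3 and 6.86 for DMSO library 2 against the others, and 3.67 between those. Between the inhibitor libraries it was 8.05, 7.86 and 5.62. Of 5 fixed marker lists, colorectal epithelium markers summed to between 6570 and 8126 CPM in every group, with EPCAM, KRT8, KRT18 and KRT19 above 1 CPM throughout. Keratins made up most of this sum, with KRT8 at 3725 CPM and KRT18 at 2184 CPM with EGFP. EPCAM, CDH1, VIL1 and LGR5 were lower in the clone than in the parental line, and CDX2 was higher. VIL1 averaged 0.472 CPM with EGFP and 0.145 CPM with ALDH1B1, against 344 CPM with DMSO. Fibroblast markers outside the 49 genes summed to between 1.47 and 3.92 CPM, and leukocyte markers to between 1.40 and 2.28 CPM. Endothelial markers summed to between 18.0 and 47.7 CPM, most of it EGFL7, and smooth muscle and pericyte markers to between 17.3 and 25.5 CPM.

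Within the knockout clone, 15 of the 49 genes were higher with EGFP than with ALDH1B1 and 4 were lower, of 38 that were tested (edgeR's quasi-likelihood test, Benjamini-Hochberg adjusted p under 0.05 over all genes tested). Among all 17404 genes tested in this comparison, 17.6% were called, 8.36% higher and 9.22% lower. For the list these shares were 50.0%, 39.5% and 10.5%. The median log2 fold change was 0.13 over the tested members and 0.01 over all genes tested. The genes that rose with EGFP were ZEB1, PRRX1, CDH11, PDGFRB, COL1A2, COL5A1, COL6A2, LAMB1, NID1, FBLN1, SPARC, ACTA2, CALD1, MYL9 and CAV1, and those that fell were TNC, VIM, TAGLN and CAVIN1. Of the 19 calls, 11 held when each of the 6 libraries was left out in turn.

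In the parental line 8 of the genes were called for the inhibitor. COL4A2, LAMB1 and NID1 rose with the inhibitor and LGALS1, SERPINE2, TAGLN, CAV1 and CAVIN1 fell, 3 higher and 5 lower of 37 tested, or 21.6%. Of all 17848 genes tested, 3.99% were called, 1.89% higher and 2.1% lower. The median log2 fold change was -0.11 over the tested members and -0.0019 over all genes. CAV1 was the 1 of the 8 calls that held when each of the 6 libraries was left out in turn. Without DMSO library 2, which stood apart, 1 member was higher and 4 were lower. Without DMSO library 3 the counts were 0 and 2, and without inhibitor library 3 they were 0 and 1, while COL4A2, LAMB1 and NID1 stayed higher at an unadjusted p under 0.05 in edgeR in both. Without the inhibitor library that carries no number they were 1 and 4.

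Most of the tested genes differed between the clone and the parental line. With EGFP, 28 members were higher and 8 lower than in the DMSO libraries, of 39 tested, and with ALDH1B1 the counts were also 28 and 8 (edgeR, 12 libraries). Only genes listed in both tables were tested here. LUM, with 202 to 348 reads in each parental library and not listed for the clone, is therefore not among the 8. Of all 19075 genes tested, 75.5% were called in the EGFP clone and 75.3% in the ALDH1B1 clone, so a call by itself says little. At a difference of 2-fold or more, 24 members were higher and 5 lower with EGFP, or 74.4%, against 36.7% of all genes. With ALDH1B1 these counts were 23 and 5, or 71.8%, against 37.0% of all genes. By direction, 61.5% of the tested members were higher and 12.8% lower with EGFP, against 19.1% and 17.6% of all genes. With ALDH1B1 these shares were 59.0% and 12.8%, against 18.6% and 18.5% of all genes. The median log2 fold change over the tested members was 1.74 with EGFP and 1.17 with ALDH1B1, against -0.02 and -0.01 over all genes tested. Both comparisons use the same DMSO libraries. Knockout, clone, introduced gene, DMSO and the occasion of culture or sequencing cannot be told apart in them.

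**Figure D1:**
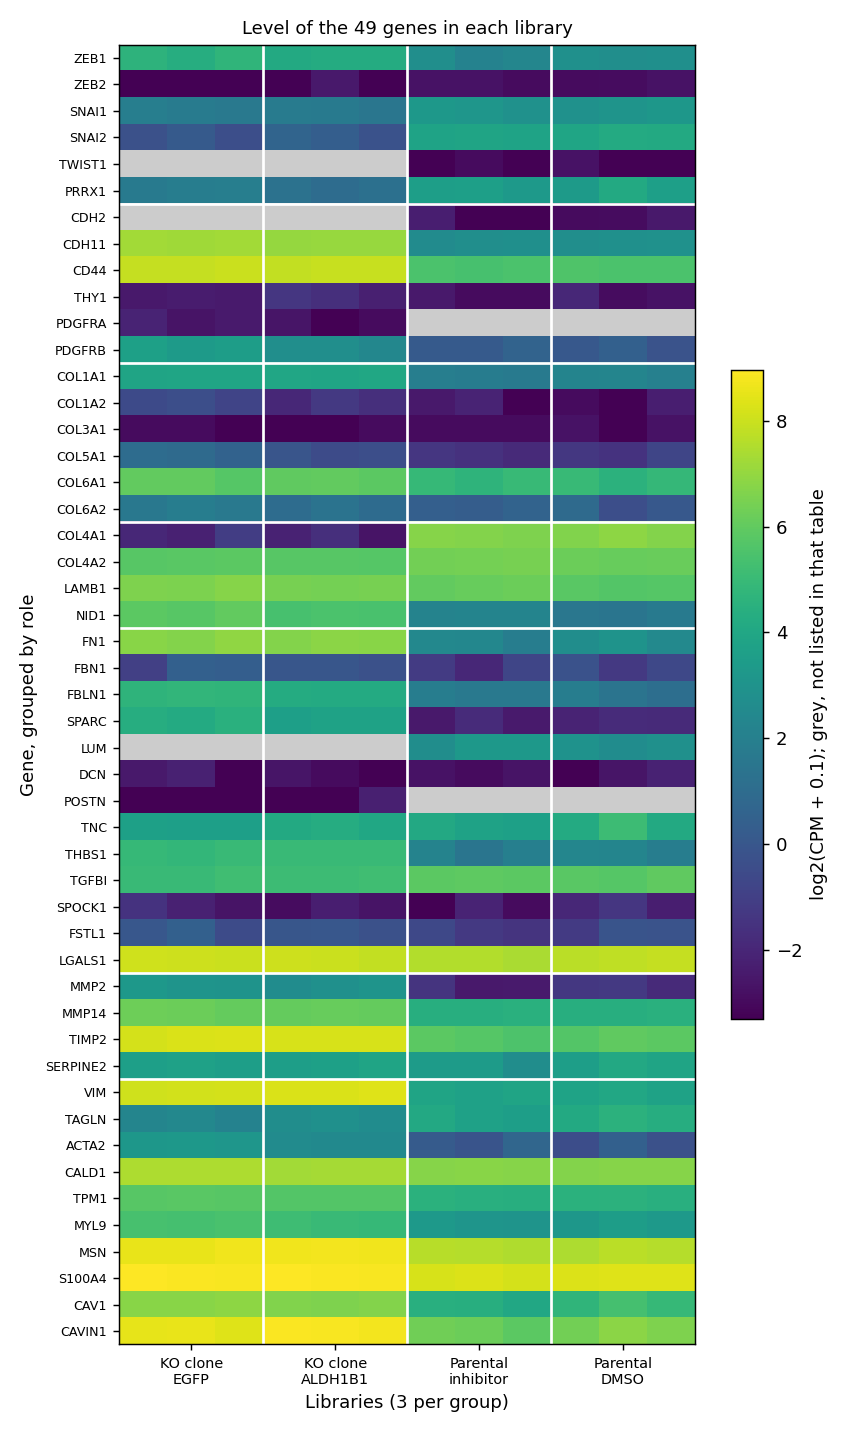
Level of each of the 49 genes, as log2(CPM + 0.1), in the 12 libraries, with 3 columns per group from left to right EGFP clone, ALDH1B1 clone, inhibitor and DMSO, and rows grouped by role. CDH11, VIM, FN1 and NID1 are brighter in the 6 clone libraries, COL4A1, SNAI2 and PRRX1 are brighter in the 6 parental ones, and grey cells mark genes not listed in that table.

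Levels per length differed widely among the members. Expressed as CPM per kilobase of summed exon length, S100A4, a calcium-binding protein of motile cells, was the most abundant member in every group, at 467 ± 23.0 with EGFP, 467 ± 11.9 with ALDH1B1, 297 ± 11.5 with the inhibitor and 319 ± 9.09 with DMSO (SD, n = 3 each). LGALS1, a galactoside-binding lectin, came next, at 238 ± 7.28 with EGFP and 200.5 ± 13.6 with DMSO. In the EGFP clone CAVIN1 at 94.2 ± 7.27 and MSN at 65.1 ± 3.70 followed, and TIMP2 at 54.8 ± 2.45 and VIM at 54.4 ± 1.18 did not differ beyond their spread. In the DMSO libraries the order was MSN at 32.5 ± 2.60 and then CAVIN1 at 25.5 ± 4.21. ZEB2, THY1, COL3A1, DCN and SPOCK1 were under 1 CPM in all libraries and fell below the filter on low counts in every comparison. TWIST1 and CDH2, under 1 CPM in the parental libraries, are not listed in the table of the clone, and PDGFRA and POSTN, under 1 CPM in the clone, are not listed in the parental table.

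The transcription factors went in different directions. ZEB1, a repressor of E-cadherin, was higher in the clone than in the parental line, while SNAI1 and SNAI2, which bind the same kind of E-box, and PRRX1, a homeodomain factor of mesenchyme, were lower. ZEB1 was at 24.6, 20.3 and 26.2 CPM with EGFP and 17.8, 18.7 and 19.0 CPM with ALDH1B1. Parental levels of ZEB1 were 6.56, 4.33 and 4.84 CPM with the inhibitor and 7.18, 6.75 and 6.83 CPM with DMSO. All EGFP libraries lay above all ALDH1B1 libraries, all inhibitor libraries lay below all DMSO libraries, and the clone and parental libraries did not overlap. The log2 fold change was 0.37 ± 0.09 for EGFP against ALDH1B1 (SE, here and for all log2 fold changes), with an edgeR Benjamini-Hochberg adjusted p of 0.00840. For the inhibitor against DMSO it was -0.41 ± 0.15, which did not pass (edgeR adjusted p = 0.132). PRRX1 was at 3.19, 3.58 and 3.76 CPM with EGFP and 2.35, 1.90 and 2.19 CPM with ALDH1B1. Its EGFP libraries lay above its ALDH1B1 libraries without overlap, by a log2 fold change of 0.72 ± 0.16 (edgeR adjusted p = 0.00760). The parental levels were 11.6, 12.3 and 9.92 CPM with the inhibitor and 10.4, 17.5 and 12.3 CPM with DMSO. DMSO library 2 was the highest and the groups overlapped, with a log2 fold change of -0.25 ± 0.15 (edgeR adjusted p = 0.360). Leaving out ALDH1B1 library 2 put the PRRX1 difference in the clone at an edgeR adjusted p of 0.0506.

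SNAI2 was nearly lost from the clone. It was at 0.730, 1.01 and 0.678 CPM with EGFP and 1.44, 1.16 and 0.767 CPM with ALDH1B1. Parental levels of SNAI2 were 13.9, 14.5 and 13.9 CPM with the inhibitor and 14.9, 18.3 and 17.3 CPM with DMSO, so the highest clone library was far below the lowest parental one. Against DMSO the log2 fold change was -4.39 ± 0.16 with EGFP and -3.92 ± 0.16 with ALDH1B1 (edgeR adjusted p = 1.94e-17 and 6.16e-17). SNAI1 averaged 3.40 ± 0.327 CPM with EGFP and 3.12 ± 0.366 CPM with ALDH1B1 in the clone, and 8.44 ± 0.933 CPM with the inhibitor and 8.19 ± 0.833 CPM with DMSO in the parental line. Its log2 fold change against DMSO was -1.27 ± 0.14 with EGFP and -1.39 ± 0.14 with ALDH1B1, and neither SNAI1 nor SNAI2 passed within the clone or for the inhibitor. The corresponding values were 1.78 ± 0.12 and 1.42 ± 0.12 for ZEB1, and -1.93 ± 0.16 and -2.64 ± 0.17 for PRRX1.

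Among the cell surface genes, CDH11 and CD44 were far higher in the clone, and PDGFRB also differed within it. CDH11 encodes a cadherin of mesenchymal cells, and it was at 152, 149 and 154 CPM with EGFP and 131, 133 and 134 CPM with ALDH1B1. Parental levels of CDH11 were 6.00, 6.73 and 6.81 CPM with the inhibitor and 6.54, 7.06 and 7.27 CPM with DMSO. The EGFP libraries were above the ALDH1B1 libraries without overlap but by little, with a log2 fold change of 0.20 ± 0.04 (edgeR adjusted p = 0.00485), set beside 4.44 ± 0.06 and 4.25 ± 0.06 for the EGFP and ALDH1B1 clone against DMSO. PDGFRB, a receptor for platelet-derived growth factor that marks pericytes and fibroblasts, was at 12.7, 10.4 and 11.5 CPM with EGFP and 6.64, 6.58 and 5.15 CPM with ALDH1B1. All EGFP libraries exceeded all ALDH1B1 libraries, by a log2 fold change of 0.93 ± 0.12 (edgeR adjusted p = 0.000117). Parental levels of PDGFRB were 1.00, 1.00 and 1.41 CPM with the inhibitor and 0.930, 1.27 and 0.799 CPM with DMSO, and the groups overlapped. Against DMSO PDGFRB stood at 3.54 ± 0.18 with EGFP and 2.62 ± 0.19 with ALDH1B1 on the log2 scale. The list of smooth muscle and pericyte markers was divided. KCNJ8 averaged 10.1 CPM with EGFP, 7.43 CPM with ALDH1B1 and 0.307 CPM with DMSO, and DES 6.89, 4.36 and 0.190 CPM in the same groups. RGS5 and CSPG4 also averaged more in the clone than with DMSO. NOTCH3 at 1.72, 1.27 and 17.9 CPM and MYH11 at 0.763, 0.695 and 1.05 CPM averaged less. CNN1 averaged under 1 CPM in every group, and ACTG2 is not listed for the clone. Of the 8 genes of that list, 5 reached 1 CPM in each clone group and 3 in the DMSO group, with sums of 24.3 to 25.5 CPM with EGFP, 17.3 to 18.1 CPM with ALDH1B1 and 18.4 to 24.2 CPM with DMSO, and their part in the result was not tested. CD44, the hyaluronan receptor, averaged 240.4 ± 9.08 CPM with EGFP and 240.3 ± 6.18 CPM with ALDH1B1, and 44.2 ± 1.85 CPM with the inhibitor and 46.4 ± 1.86 CPM with DMSO. It did not pass within the clone or for the inhibitor, and against DMSO its log2 fold change was 2.37 ± 0.05 with EGFP and 2.37 ± 0.05 with ALDH1B1.

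**Figure D2:**
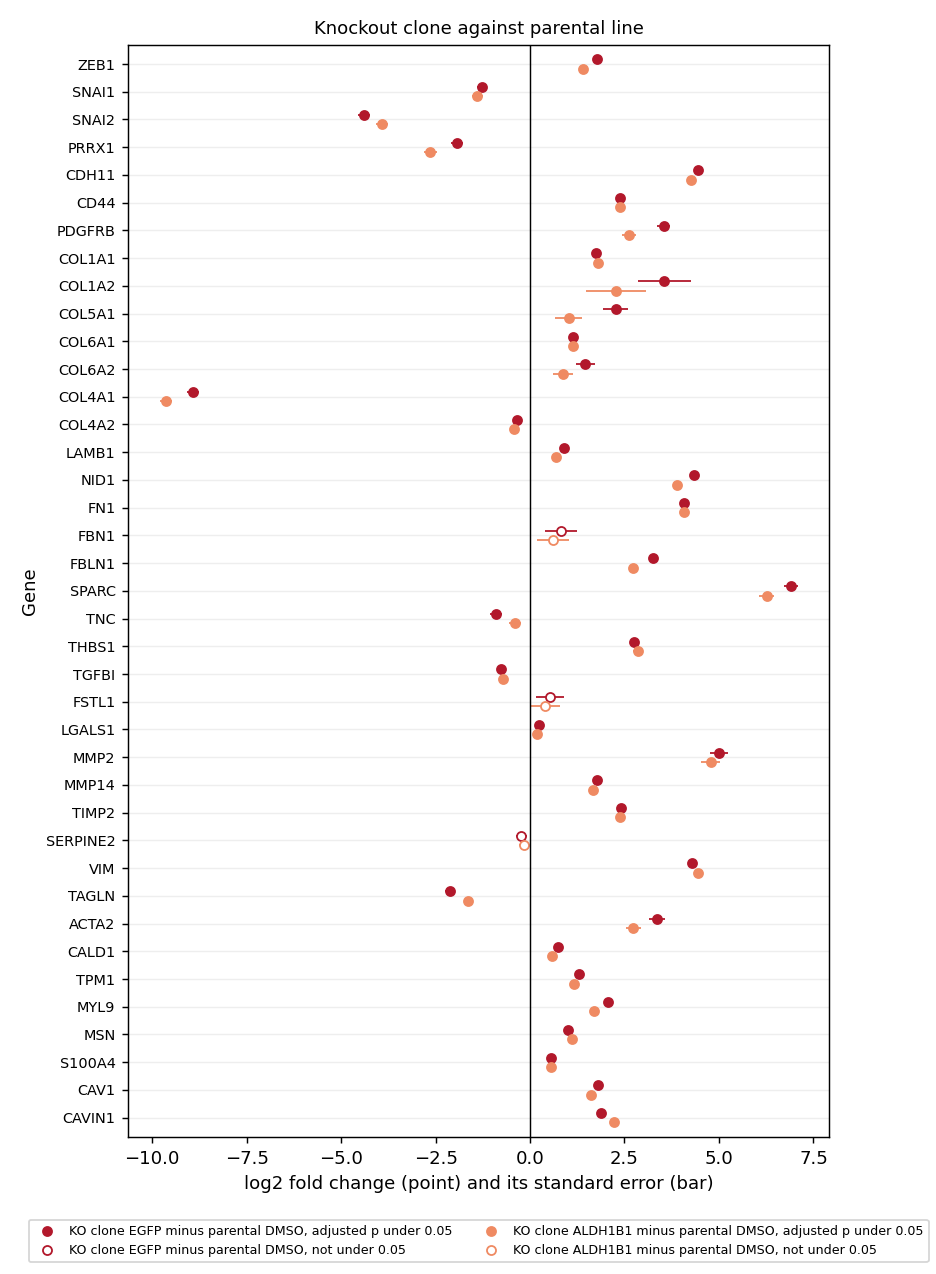
Log2 fold change with its standard error for the 39 tested genes, EGFP clone minus parental DMSO in dark red and ALDH1B1 clone minus parental DMSO in orange. Filled points have an adjusted p under 0.05, and SPARC at 6.90 and 6.26 and COL4A1 at -8.92 and -9.63 are the outermost points.

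Collagen chains that assemble with each other were at unequal levels, and the fibrillar chains were lower per kilobase of exon than COL6A1, a chain of collagen VI, in every group. Collagen I is built from the products of COL1A1 and COL1A2. Per kilobase of exon, COL1A1 was at 1.51 ± 0.0206 CPM and COL1A2 at 0.0517 ± 0.00898 CPM with EGFP, and COL6A1 was at 11.5 ± 1.30 CPM and COL6A2 at 0.589 ± 0.0657 CPM. In the DMSO libraries COL1A1 was at 0.452 ± 0.0368 and COL1A2 at 0.00387 ± 0.00480 CPM per kilobase. The more abundant chain of each pair did not pass within the clone, with a log2 fold change of -0.04 ± 0.07 for COL1A1 and -0.00 ± 0.07 for COL6A1. The scarcer chain was called. COL1A2 was at 0.568, 0.680 and 0.480 CPM with EGFP and 0.157, 0.317 and 0.219 CPM with ALDH1B1, which is 17 to 23 reads per EGFP library and 5 to 12 reads per ALDH1B1 library. The groups did not overlap, and the log2 fold change was 1.30 ± 0.41 (edgeR adjusted p = 0.0407). COL6A2 was at 2.92, 3.58 and 3.02 CPM with EGFP and 1.94, 2.51 and 1.86 CPM with ALDH1B1, with a log2 fold change of 0.60 ± 0.18 (edgeR adjusted p = 0.0314). COL1A2 lost its call without any 1 of the ALDH1B1 libraries or of EGFP libraries 1 and 2, at an edgeR adjusted p of up to 0.160, with no filter on low counts (0.0520) and in the fit over 12 libraries (0.113). COL6A2 lost it without ALDH1B1 library 1 or 3 or EGFP library 1 or 2, at up to 0.115, in the fit over 12 libraries (0.0979) and in DESeq2 (0.0587). COL5A1, a chain of collagen V that regulates fibril diameter, was at 1.92, 1.80 and 1.36 CPM with EGFP and 0.845, 0.608 and 0.685 CPM with ALDH1B1. All EGFP libraries were above all ALDH1B1 libraries, by a log2 fold change of 1.26 ± 0.26 (edgeR adjusted p = 0.00441), and this held with each library left out.

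In the parental line COL1A1 stood at 3.79, 3.46 and 3.17 CPM with the inhibitor and 4.52, 4.76 and 4.05 CPM with DMSO. The groups did not overlap, but the log2 fold change of -0.36 ± 0.14 did not pass (edgeR adjusted p = 0.176). The clone against DMSO gave log2 fold changes for COL1A1 of 1.74 ± 0.10 with EGFP and 1.79 ± 0.10 with ALDH1B1, and for COL6A1 of 1.13 ± 0.09 and 1.14 ± 0.09. For COL6A2 these were 1.46 ± 0.25 and 0.87 ± 0.26, for COL5A1 2.27 ± 0.33 and 1.02 ± 0.36, and for COL1A2 3.56 ± 0.70 and 2.27 ± 0.79. In the ALDH1B1 clone COL1A2 lost its call without ALDH1B1 library 2, DMSO library 1 or DMSO library 2, with edgeR adjusted p up to 0.0601. COL5A1 lost its call without ALDH1B1 library 1, DMSO library 1 or DMSO library 2, with edgeR adjusted p up to 0.0654.

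The basement membrane genes held the most extreme member. COL4A1 and COL4A2 encode chains of collagen IV, lie head to head on chromosome 13 and are known to be transcribed from a shared promoter in opposite directions. Their RefSeq starts (GRCh38.p14) are at 110307157 on the minus strand for COL4A1 and at 110307284 on the plus strand for COL4A2. The 126 bases between those starts, chr13:110307158-110307283 on the plus strand, are shown because the genes on either side of them were at such different levels in the clone; capitals mark the CCAAT and GGGCGG matches, searched on both strands.
COL4A1-COL4A2: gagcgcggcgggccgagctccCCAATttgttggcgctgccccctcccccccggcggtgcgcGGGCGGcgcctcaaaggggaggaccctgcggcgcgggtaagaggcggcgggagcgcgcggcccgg
The GC content was 80.2%. Each motif matched 1 time. Among 35116 RefSeq windows cut to the 126 bases before a start, 21.1% held CCAAT and 34.6% held GGGCGG. In GENCODE release 29, exons of other transcripts of both genes lie within this stretch.

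COL4A1 had few reads in the clone, and COL4A2 many. COL4A1 was at 0.162, 0.118 and 0.367 CPM with EGFP and 0.125, 0.211 and 0.0548 CPM with ALDH1B1, which is 2 to 13 reads per library. Parental levels of COL4A1 were 108, 102 and 96.4 CPM with the inhibitor and 98.6, 118 and 105 CPM with DMSO, or 3343 to 4090 reads per library. COL4A2 was at 54.8, 56.2 and 59.1 CPM with EGFP and 55.3, 54.5 and 53.0 CPM with ALDH1B1. The parental levels of COL4A2 were 82.6, 84.1 and 85.9 CPM with the inhibitor and 75.1, 68.8 and 72.6 CPM with DMSO. Against DMSO the log2 fold change was -8.92 ± 0.15 with EGFP and -9.63 ± 0.16 with ALDH1B1 for COL4A1, and -0.35 ± 0.05 and -0.41 ± 0.05 for COL4A2 (all past an edgeR adjusted p of 0.05). Per kilobase of exon, COL4A1 was at 0.0147 ± 0.00902 CPM and COL4A2 at 2.94 ± 0.113 CPM with EGFP, whereas with DMSO COL4A1 was at 7.26 ± 0.654 CPM and COL4A2 at 3.74 ± 0.166 CPM. Within the clone COL4A1 fell below the filter on low counts.

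NID1 and LAMB1 rose in both pairs. NID1 encodes nidogen, which links laminin to collagen IV, and was at 58.1, 54.4 and 64.2 CPM with EGFP and 42.0, 44.4 and 43.9 CPM with ALDH1B1. Parental levels of NID1 were 4.42, 4.59 and 4.61 CPM with the inhibitor and 2.79, 2.67 and 3.22 CPM with DMSO. The EGFP libraries lay above the ALDH1B1 libraries and the inhibitor libraries above the DMSO libraries, in both cases without overlap. The log2 fold change was 0.45 ± 0.06 in the clone and 0.63 ± 0.15 for the inhibitor (edgeR adjusted p = 0.000267 and 0.0257). Against DMSO it was 4.34 ± 0.09 with EGFP and 3.90 ± 0.09 with ALDH1B1. LAMB1, a laminin beta chain, was at 97.2, 93.3 and 107 CPM with EGFP and 86.4, 85.6 and 86.2 CPM with ALDH1B1. Its parental levels were 64.3, 68.5 and 74.1 CPM with the inhibitor and 56.8, 51.1 and 52.5 CPM with DMSO. Neither pair overlapped, with a log2 fold change of 0.22 ± 0.05 in the clone and 0.35 ± 0.06 for the inhibitor (edgeR adjusted p = 0.0123 and 0.00695). COL4A2 differed by a log2 fold change of 0.21 ± 0.05 for the inhibitor (edgeR adjusted p = 0.0396), again without overlap. NID1 lost the inhibitor call without DMSO library 2 or 3, the unnumbered inhibitor library or inhibitor library 3, at an edgeR adjusted p of up to 0.105. LAMB1 lost it without DMSO library 3 or inhibitor library 3, at up to 0.0555, and lost the clone call without ALDH1B1 library 1 or 2, at up to 0.0717. COL4A2 kept it in 1 of the 6 fits, the one without DMSO library 1, and the highest edgeR adjusted p was 0.171.

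Among the other matrix genes, FBLN1 and SPARC rose with EGFP and TNC fell. FBLN1, an elastic fibre and basement membrane glycoprotein, was at 25.4, 27.1 and 26.3 CPM with EGFP and 18.5, 17.9 and 18.2 CPM with ALDH1B1. SPARC, a collagen-binding matricellular protein, was at 19.9, 18.2 and 22.4 CPM with EGFP and 12.3, 13.4 and 13.3 CPM with ALDH1B1. For both genes every EGFP library exceeded every ALDH1B1 library, by a log2 fold change of 0.54 ± 0.06 for FBLN1 and 0.64 ± 0.08 for SPARC (edgeR adjusted p = 7.20e-05 and 0.000180). Tenascin-C, encoded by TNC and common in tumour stroma, was at 12.8, 12.3 and 12.1 CPM with EGFP and 17.5, 19.5 and 15.9 CPM with ALDH1B1. It went the other way, with a log2 fold change of -0.50 ± 0.08 (edgeR adjusted p = 0.00117) and no overlap. Parental levels of TNC were 16.8, 13.7 and 12.5 CPM with the inhibitor and 18.3, 33.8 and 17.7 CPM with DMSO. The inhibitor libraries were all lower, DMSO library 2 stood well above the other DMSO libraries, and the log2 fold change was -0.70 ± 0.19 (edgeR adjusted p = 0.0507). LGALS1 was at 186, 188 and 172 CPM with the inhibitor and 205, 222 and 235 CPM with DMSO in the parental line. The groups did not overlap, and the log2 fold change was -0.29 ± 0.06 (edgeR adjusted p = 0.0101), whereas within the clone it was 0.08 ± 0.05 (edgeR adjusted p = 0.268). Without DMSO library 3 or inhibitor library 3 LGALS1 lost the inhibitor call, at an edgeR adjusted p of up to 0.0950.

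SPARC and FN1 separated the clone from the parental line. SPARC was at 0.0790, 0.185 and 0.0865 CPM with the inhibitor and 0.133, 0.187 and 0.180 CPM with DMSO in the parental libraries. Its log2 fold change against DMSO was 6.90 ± 0.19 with EGFP and 6.26 ± 0.19 with ALDH1B1, the highest among the members in both. Each DMSO library held only 5 to 7 reads of SPARC, and for the inhibitor it fell below the filter on low counts. FN1, the fibronectin of the provisional matrix, was at 109, 103 and 121 CPM with EGFP and 104, 115 and 111 CPM with ALDH1B1. Parental levels of FN1 were 5.32, 5.01 and 3.63 CPM with the inhibitor and 6.49, 7.81 and 5.41 CPM with DMSO. Its log2 fold change was 4.09 ± 0.10 with EGFP and 4.08 ± 0.10 with ALDH1B1 against DMSO, 0.02 ± 0.06 within the clone and -0.50 ± 0.16 for the inhibitor (edgeR adjusted p = 0.0948), where the groups did not overlap. THBS1, thrombospondin, was higher in the clone by 2.76 ± 0.12 with EGFP and 2.85 ± 0.12 with ALDH1B1 on the log2 scale, and FBLN1 by 3.27 ± 0.13 and 2.74 ± 0.13. TGFBI, a secreted protein induced by TGF-beta, was lower, at -0.76 ± 0.07 and -0.71 ± 0.07. LUM, a small proteoglycan of collagen fibrils, had 202 to 348 reads in each parental library and is not listed in the table of the clone. Its parental levels were 6.45, 9.19 and 9.20 CPM with the inhibitor and 7.60, 6.28 and 7.17 CPM with DMSO, which overlapped, with a log2 fold change of 0.22 ± 0.14 (edgeR adjusted p = 0.411). FBN1 and FSTL1 were tested in every comparison and passed in none.

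Of the proteases and inhibitors, 3 were higher in the clone and 1 responded to the inhibitor. MMP14 is a membrane-bound protease that activates MMP2 with the help of TIMP2. MMP2 was at 9.33, 8.02 and 7.74 CPM with EGFP and 6.26, 7.03 and 8.25 CPM with ALDH1B1. Parental levels of MMP2 were 0.263, 0.0792 and 0.0865 CPM with the inhibitor and 0.292, 0.311 and 0.180 CPM with DMSO. The clone and parental libraries did not overlap, with 7 to 11 MMP2 reads per DMSO library. The log2 fold change against DMSO was 5.0 ± 0.24 with EGFP and 4.78 ± 0.24 with ALDH1B1. For MMP14 it was 1.77 ± 0.06 and 1.68 ± 0.06, and for TIMP2 2.42 ± 0.07 and 2.37 ± 0.07. Within the clone the log2 fold change was 0.23 ± 0.12 for MMP2, 0.11 ± 0.06 for MMP14, 0.06 ± 0.04 for TIMP2 and -0.06 ± 0.09 for SERPINE2, and the lowest edgeR adjusted p of the 4 was 0.212. SERPINE2, an inhibitor of thrombin and urokinase, was at 10.8, 10.7 and 6.46 CPM with the inhibitor and 11.9, 17.1 and 14.4 CPM with DMSO in the parental line. All inhibitor libraries were lower than all DMSO libraries, inhibitor library 3 lowest, with a log2 fold change of -0.64 ± 0.16 (edgeR adjusted p = 0.0374). The call was lost without DMSO library 2 or 3 or inhibitor library 3, at an edgeR adjusted p of up to 0.126.

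Contractile and caveolar genes divided within the clone. ACTA2, smooth muscle actin, was at 8.90, 9.20 and 8.62 CPM with EGFP and 5.98, 5.65 and 5.70 CPM with ALDH1B1. MYL9, a myosin regulatory light chain, was at 41.3, 40.8 and 43.4 CPM with EGFP and 35.0, 31.9 and 30.0 CPM with ALDH1B1. Both were higher with EGFP without overlap, by a log2 fold change of 0.64 ± 0.10 for ACTA2 and 0.38 ± 0.06 for MYL9 (edgeR adjusted p = 0.000640 and 0.000849). TAGLN, the actin-binding protein transgelin, was at 4.68, 5.21 and 4.32 CPM with EGFP and 6.39, 7.13 and 6.28 CPM with ALDH1B1. Parental levels of TAGLN were 16.9, 13.0 and 11.9 CPM with the inhibitor and 17.7, 23.5 and 20.2 CPM with DMSO. It was lower with EGFP and lower with the inhibitor, neither pair overlapping, with a log2 fold change of -0.47 ± 0.12 and -0.56 ± 0.12 (edgeR adjusted p = 0.0148 and 0.0200). CALD1, caldesmon, rose with EGFP and VIM, the intermediate filament protein vimentin, fell, with a log2 fold change of 0.17 ± 0.04 for CALD1 and -0.16 ± 0.04 for VIM (edgeR adjusted p = 0.0137 and 0.0167). VIM was at 274, 283 and 285 CPM with EGFP and 308, 315 and 328 CPM with ALDH1B1. Parental levels of VIM were 14.5, 12.9 and 14.4 CPM with the inhibitor and 14.0, 16.2 and 13.4 CPM with DMSO, so the difference within the clone was small beside log2 fold changes against DMSO of 4.28 ± 0.07 with EGFP and 4.45 ± 0.07 with ALDH1B1. TAGLN lost the clone call without ALDH1B1 library 2 or EGFP library 1 (edgeR adjusted p up to 0.0870) and the inhibitor call without DMSO library 3, the unnumbered inhibitor library or inhibitor library 3 (up to 0.105). VIM lost its call without ALDH1B1 library 2 or 3 or EGFP library 1 (up to 0.0804), and CALD1 without ALDH1B1 library 1 or 2 (up to 0.0776). Of their exon bases, ACTA2 shares 30.1%, VIM 24.4%, TPM1 21.4%, TAGLN 11.4%, TIMP2 10.0% and SPARC 7.89% with other annotated genes. Without the strand setting of the counting, reads of the overlapping genes cannot be told apart.

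CAV1 and CAVIN1, the membrane protein and the coat protein of caveolae, moved in opposite directions within the clone and in the same direction with the inhibitor. CAV1 was at 110.3, 109 and 119 CPM with EGFP and 99.1, 97.4 and 102 CPM with ALDH1B1. Parental levels of CAV1 were 21.5, 20.8 and 16.7 CPM with the inhibitor and 26.4, 41.1 and 30.0 CPM with DMSO. All EGFP libraries were above all ALDH1B1 libraries and all inhibitor libraries below all DMSO libraries, with DMSO library 2 the highest of the parental libraries. The log2 fold change was 0.19 ± 0.05 in the clone and -0.73 ± 0.13 for the inhibitor (edgeR adjusted p = 0.0143 and 0.00592). Without DMSO library 2 the inhibitor value was -0.54, and over the 6 fits that each left out a library it lay between -0.86 and -0.54. The clone call of CAV1 was lost without ALDH1B1 library 1 or 2, at an edgeR adjusted p of up to 0.0970, and in the fit over all 12 libraries, at 0.237. CAVIN1 was at 367, 384 and 329.8 CPM with EGFP and 471, 463 and 437 CPM with ALDH1B1. Parental levels of CAVIN1 were 80.0, 73.6 and 59.5 CPM with the inhibitor and 81.4, 114 and 97.3 CPM with DMSO. Here both pairs were lower without overlap, by a log2 fold change of -0.33 ± 0.05 in the clone and -0.47 ± 0.10 for the inhibitor (edgeR adjusted p = 0.000911 and 0.0216). Without DMSO library 3 or inhibitor library 3 the inhibitor call of CAVIN1 was lost, at up to 0.104, and it was the 1 inhibitor call lost in DESeq2 (adjusted p = 0.0924).

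Against DMSO, 9 of the 10 cytoskeletal and caveolar genes were higher in the clone, with EGFP and with ALDH1B1, and TAGLN was lower. Of all genes tested, 37.8% were called higher and 37.7% lower with EGFP, and 38.0% and 37.4% with ALDH1B1. The log2 fold changes with EGFP and with ALDH1B1 were 3.36 ± 0.20 and 2.74 ± 0.21 for ACTA2, 2.08 ± 0.09 and 1.70 ± 0.09 for MYL9, and -2.11 ± 0.13 and -1.63 ± 0.13 for TAGLN. They were 1.80 ± 0.10 and 1.62 ± 0.10 for CAV1 and 1.89 ± 0.10 and 2.23 ± 0.10 for CAVIN1. TPM1, a tropomyosin, gave 1.28 ± 0.06 and 1.17 ± 0.06, and MSN, which ties the membrane to actin, gave 1.00 ± 0.06 and 1.12 ± 0.06. In bulk samples such as these, fewer cells with a transcript and less of it per cell cannot be told apart.

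**Figure D3:**
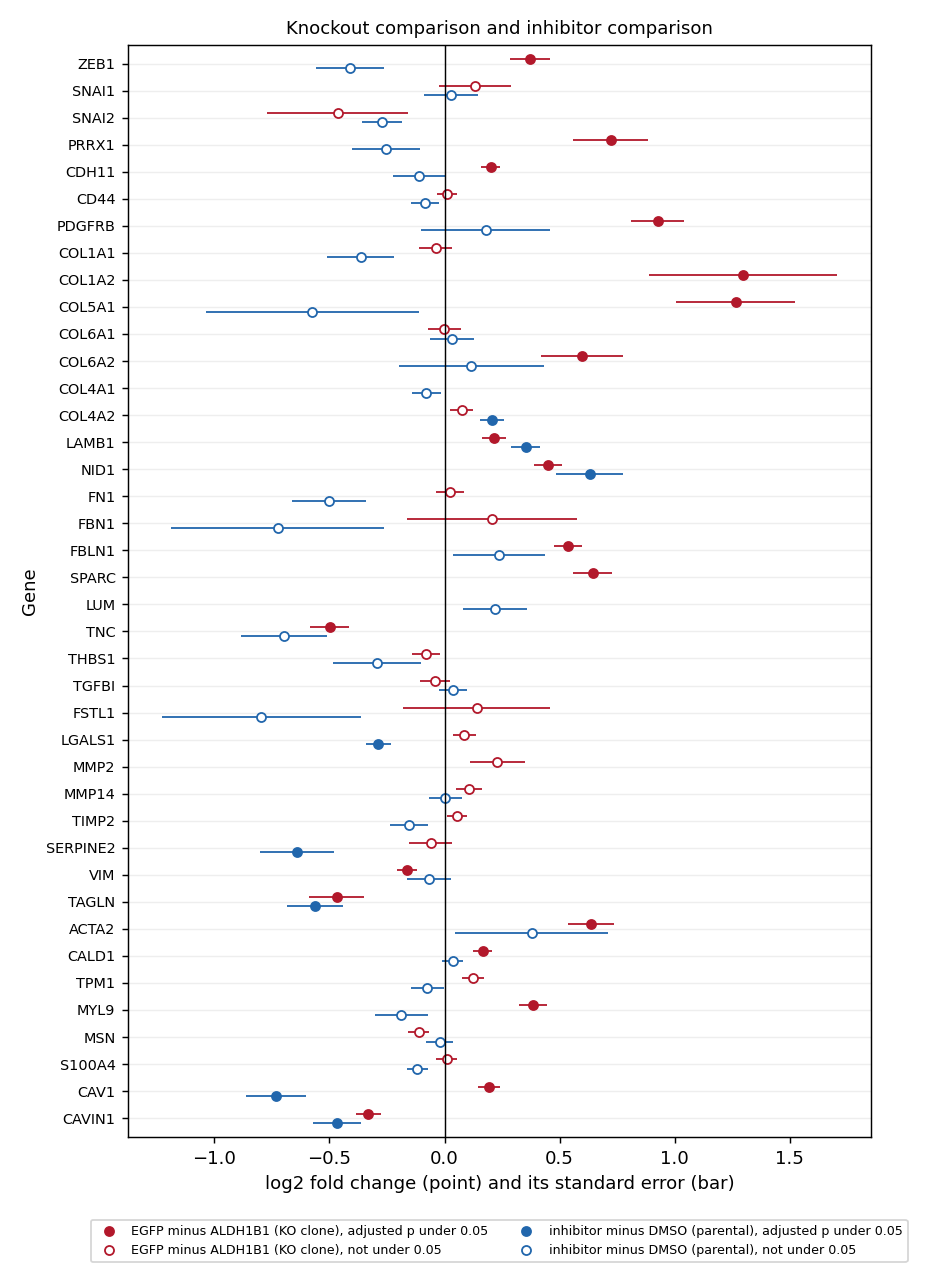
Log2 fold change with its standard error for each tested gene, EGFP minus ALDH1B1 in the knockout clone in red and inhibitor minus DMSO in the parental line in blue, with filled points for an adjusted p under 0.05. CAV1 lies at 0.19 and -0.73, ZEB1 at 0.37 and -0.41, and NID1 at 0.45 and 0.63.

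**Figure D4:**
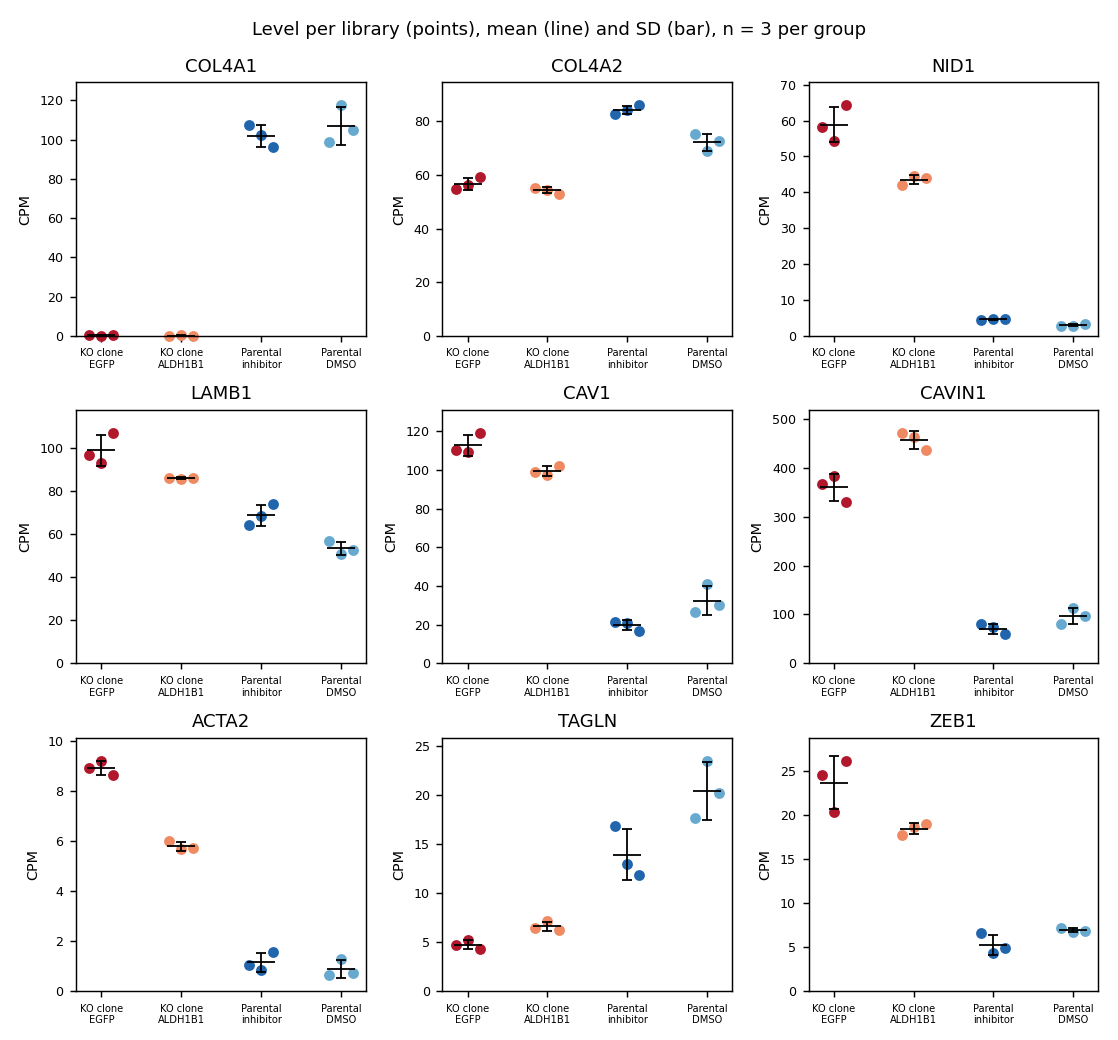
CPM of 9 genes in each library (points), with the mean (line) and SD (bar) of the 3 libraries per group, each panel from 0 on its own linear axis. COL4A1 averages 0.216 and 0.130 CPM in the clone groups, against 102 and 107 CPM in the parental ones, while COL4A2 stays between 53.0 and 85.9 CPM in all 12 libraries.

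The difference between the pairs was tested as an interaction over the 12 libraries, and 6 of 39 tested members passed, or 15.4%, against 5.11% of all 19075 genes. All 6 were positive, which is higher for EGFP minus ALDH1B1 than for inhibitor minus DMSO, a direction called at 1.9% of all genes, while 3.2% were called negative. With none of the members called negative in edgeR or in DESeq2, 1, COL4A2, was negative at an unadjusted p under 0.05. CAV1 differed by 0.90 ± 0.15 on the log2 scale (edgeR adjusted p = 0.00123), ZEB1 by 0.76 ± 0.17 (0.0104) and MYL9 by 0.55 ± 0.13 (0.0147), and these 3 held when each of the 12 libraries was left out. PRRX1 differed by 0.95 ± 0.24 (edgeR adjusted p = 0.0210), LGALS1 by 0.35 ± 0.08 (0.0158) and COL5A1 by 1.81 ± 0.52 (0.0422). PRRX1 lost its call without ALDH1B1 library 2 or inhibitor library 3, at up to 0.0753. LGALS1 lost it without EGFP library 1, DMSO library 3 or inhibitor library 3, at up to 0.0649. COL5A1, under 2 CPM in every library, kept it in 3 of the 12 fits, those without EGFP library 3, DMSO library 2 or inhibitor library 1, and reached 0.173. For NID1, LAMB1, TAGLN and CAVIN1, which moved the same way in both pairs, the differences of -0.20 ± 0.13, -0.16 ± 0.09, 0.07 ± 0.18 and 0.11 ± 0.13 did not pass, with edgeR adjusted p of 0.410, 0.315, 0.885 and 0.706.

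Other genes of the same pathways were read from 6 fixed lists. Beside their counts stand the 17.6% of all genes called within the clone (8.36% higher, 9.22% lower), 3.99% for the inhibitor (1.89% and 2.1%), and 75.5% and 75.3% for the EGFP and ALDH1B1 clone against DMSO. Of 24 tested TGF-beta pathway genes, which lead to SMAD signalling and induce many matrix genes, 6 were higher and 1 lower with EGFP than with ALDH1B1. With the inhibitor 4 passed, all lower than with DMSO. TGFB2, a ligand of the pathway, averaged 15.7 ± 1.08 CPM with EGFP and 11.4 ± 0.423 CPM with ALDH1B1 (SD, n = 3 each), and it shares 26.6% of its exon bases with TGFB2-OT1 on the same strand. PMEPA1, a feedback inhibitor of the pathway, was lower with the inhibitor, by a log2 fold change of -0.49 ± 0.10 (SE), and THSD4 by -0.83 ± 0.12 (edgeR adjusted p = 0.0124 and 0.00156). Calls of single genes on the 6 lists, unlike those of the members, were not followed over the fits that left out a library. Against DMSO 12 genes of this list were higher and 11 lower with EGFP, and 11 and 11 with ALDH1B1, which is near an even split. LTBP2, which is related to the proteins that hold latent TGF-beta in the matrix, averaged 268 ± 13.1 CPM with EGFP and 308 ± 11.2 CPM with ALDH1B1, and 2.79 ± 0.897 CPM with DMSO.

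Of 25 other collagen and basement membrane genes tested in the clone, 4 were higher and 2 lower with EGFP, and of 27 tested with the inhibitor 1 was higher and 3 were lower. Against DMSO the list was divided, with 13 higher and 12 lower of 29 tested with EGFP, and 13 and 14 with ALDH1B1. COL13A1, a transmembrane collagen, had the largest fold among those at 5 CPM or more and was higher in the clone, at 28.9 ± 3.24 CPM with EGFP and 35.4 ± 0.960 CPM with ALDH1B1, against 0.343 ± 0.0515 CPM with DMSO. COL9A3, a chain of collagen IX, was higher with ALDH1B1 than with DMSO by a log2 fold change of 2.86 ± 0.08 (SE). Its value with EGFP is not given, because only up to 3 genes were named per list and comparison. LAMB3 and LAMA3, chains of the laminin under epithelia, were lower in the clone than in the parental line. LAMB3 averaged 87.6 ± 3.05 CPM with EGFP and 122 ± 1.94 CPM with ALDH1B1, against 799 ± 52.6 CPM with DMSO. LAMA3 averaged 13.3 ± 0.627 CPM with EGFP and 13.8 ± 1.52 CPM with ALDH1B1, against 178 ± 22.6 CPM with DMSO, and was also lower with the inhibitor at 129 ± 4.75 CPM. Of 23 tested genes of collagen modification and crosslinking, 4 were higher and 3 lower with EGFP and 1 passed with the inhibitor, which was lower. Against DMSO 14 of 24 were higher and 8 lower with EGFP, and 14 and 9 with ALDH1B1. P3H2, a collagen prolyl hydroxylase, was lower in the clone, at 0.598 ± 0.251 CPM with EGFP and 0.443 ± 0.178 CPM with ALDH1B1, against 33.1 ± 2.41 CPM with DMSO, and it was the gene that passed with the inhibitor. TGM2, a transglutaminase that crosslinks matrix proteins, averaged 2755 ± 59.1 CPM with EGFP and 2618 ± 96.1 CPM with ALDH1B1, against 66.7 ± 7.09 CPM with DMSO. Of 16 further matrix proteases and inhibitors, 3 were higher and 1 lower with EGFP. Against DMSO 12 were higher and 2 lower with EGFP, and 12 and 3 with ALDH1B1. MMP17, a membrane-anchored protease, was lower, at 1.17 ± 0.253 CPM with EGFP and 1.12 ± 0.119 CPM with ALDH1B1, against 20.6 ± 1.28 CPM with DMSO. MMP24, another, averaged 113 ± 11.1 CPM with EGFP and 99.5 ± 1.53 CPM with ALDH1B1, against 1.57 ± 0.387 CPM with DMSO, and 21.8% of its exon bases are shared with other annotated genes.

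The actin contractility list ran the other way from ACTA2 and MYL9 within the clone. Of 20 tested genes, 2 were higher and 10 lower with EGFP than with ALDH1B1, with a median log2 fold change of -0.16. FLNA, a crosslinker of actin, averaged 3434 ± 71.6 CPM with EGFP and 4670 ± 174 CPM with ALDH1B1, while MYLK, the kinase of myosin light chains, averaged 28.5 ± 0.214 CPM with EGFP and 20.5 ± 1.48 CPM with ALDH1B1. With the inhibitor 1 gene was higher and 3 were lower. Against DMSO 14 were higher and 6 lower with EGFP, and 13 and 2 with ALDH1B1. Of 27 tested epithelial junction and splicing genes, 6 were higher and 19 lower with EGFP than with DMSO, and 7 were higher and 17 lower with ALDH1B1 than with DMSO. ESRP1, an epithelial splicing factor, averaged 16.2 ± 0.772 CPM with EGFP and 17.3 ± 1.39 CPM with ALDH1B1, against 277 ± 3.02 CPM with DMSO. The tight junction gene CLDN7 averaged 28.6 ± 2.19 CPM with EGFP and 30.5 ± 1.46 CPM with ALDH1B1, against 255 ± 5.41 CPM with DMSO, and shares 12.3% of its exon bases with other annotated genes. Within the clone 2 of 26 were higher and 3 lower with EGFP, and with the inhibitor 2 of 26 passed, both higher. The 10 colorectal epithelium markers were divided. EPCAM averaged 122, 135, 730 and 767 CPM with EGFP, ALDH1B1, inhibitor and DMSO, CDH1 5.66, 4.89, 33.7 and 39.0 CPM, VIL1 0.472, 0.145, 398 and 344 CPM, and LGR5 0.258, 0.0757, 3.83 and 3.58 CPM. The keratins did not follow, with KRT8 at 3725, 4402, 3879 and 3594 CPM, KRT18 at 2184, 2453, 2010 and 2014 CPM, and KRT19 at 629, 874, 756 and 684 CPM in the same order. CDX2, an intestinal transcription factor, averaged more in the clone, at 61.3, 50.0, 26.5 and 25.2 CPM. KRT20 averaged under 1 CPM in every group, as did CDX1 in the parental groups, and CDX1 is not listed in the table of the clone.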

How the data were processed

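Per the labels' protocols, mRNA was selected on oligo(dT) beads for each of the 12 libraries. Per the submitters' processing notes fastp, STAR, DESeq2 and hg38 were used. For the counting of reads, the program, strand setting and annotation were not given in the sources. The authors deposited raw read counts, whole numbers for each gene and library, in 2 tables, per the file headers. Another 24 per-sample columns of normalized values were not used. Gene spans and exon lengths of all 33331 listed genes equal GENCODE release 29, which gave the exon overlaps. Sequence came from RefSeq (GRCh38.p14).

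The test was the quasi-likelihood F test of edgeR 4.0.16, run in R 4.3.3 (TMM scaling, filterByExpr, Benjamini-Hochberg adjustment over all genes tested, threshold 0.05). EGFP minus ALDH1B1 and inhibitor minus DMSO were each fitted on their own 6 libraries. Their difference and the clone against parental comparisons were fitted on all 12 libraries and the genes listed in both tables. Standard errors are the log2 fold change divided by the square root of F. CPM used TMM-scaled sizes of the 12 libraries. The fits were tested on simulated data; recovery of 2-fold changes over all genes fell short of the first criterion, with genes under 1 CPM mostly missed, and the criterion was then limited to genes at 5 CPM or more. In the simulated calls the false share exceeded the nominal 0.05 in each comparison other than the inhibitor pair. Precision is limited by 32617089 to 39018926 reads per library and by 3 libraries per group. The series text calls the libraries biological replicates, but for the clone they are of 1 clone. One inhibitor column carries no replicate number and entered the fits as an unnumbered library of that group. Alternatives were DESeq2 1.42.0, relative log expression size factors, dropping the filter, 1 fit over all libraries, a correction for exon length, a replicate block and leaving out each library.

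The genes named were ALDH1B1, all members past 0.05 in either pair, members at 1 CPM or more that differed at least 2-fold between clone and parental line, and up to 3 genes of each of 6 pathway lists at 5 CPM or more. The members and lists were chosen with earlier results of these data known. The other members were named to account for all of them, and the marker genes named with values were picked from their lists after those values were seen.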

Additional observations from a re-analysis of the deposited data

Results flagged for a closer look

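For 6 members the effect of EGFP against ALDH1B1 in the knockout clone differed from the effect of the inhibitor against DMSO in the parental line, by the interaction test in edgeR over 12 libraries. The difference of the log2 fold changes was 0.90 for CAV1, 0.76 for ZEB1, 0.55 for MYL9, 0.95 for PRRX1, 0.35 for LGALS1 and 1.81 for COL5A1. For CAV1 the clone pair was higher by a log2 fold change of 0.19 and the parental pair was lower at -0.73, and each passed in its own fit. The clone call of CAV1 was lost without ALDH1B1 library 1 or 2. It was also lost in the fit over 12 libraries (edgeR adjusted p = 0.237). ZEB1 and PRRX1 passed in the clone at 0.37 and 0.72 and did not pass in the parental line at -0.41 and -0.25. LGALS1 passed in the parental line at -0.29. COL5A1 passed in the clone at 1.26. In the parental line, at 6 to 19 reads per library, COL5A1 did not pass at -0.57 ± 0.46 (SE, edgeR adjusted p = 0.540). The differences of PRRX1, LGALS1 and COL5A1 lost their call in at least 1 of the fits that left out a library. The clone and the parental line differ in more than the contrast, so line and kind of perturbation cannot be told apart in this difference.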

How the results depend on the processing

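No member called in a pair or in the difference between the pairs changed direction under any alternative run. The same held for members called at 2-fold or more against DMSO. Other results were not checked for direction. Members called lower in the clone numbered 4, and between 2 and 5 with 1 library left out; those called higher numbered 15, and between 10 and 16. For the inhibitor, members called higher numbered 3 and lower 5; with 1 library left out they were between 0 and 3 and between 1 and 7. The difference between the pairs called 6, and between 3 and 7 with 1 library left out. Against DMSO, 28 higher and 8 lower with EGFP became 28 to 29 and 8 to 9, and with ALDH1B1 25 to 28 and 7 to 8. DESeq2 called 17 members in the clone, 7 for the inhibitor and 6 for the difference. A fit over 12 libraries called 16 members in the clone and 10 for the inhibitor, with FN1 and TNC added.

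Where libraries carry the same number, the correlation of their deviations lay between -0.05 and 0.01. The unnumbered inhibitor library gave 0.13 with DMSO library 2. Inhibitor library 3 gave 0.12 with DMSO library 1, which has another number. A block that pairs the unnumbered library was not fitted. With a replicate block the clone counts were 15 higher and 4 lower. For the inhibitor only libraries 1 and 3 carry a shared number, and on those 4 libraries the block gave 1 higher and 5 lower. An alternative chosen after seeing the data, the same 4 libraries with no block, gave 1 higher and 2 lower. NID1 and COL4A2 were not called in either (edgeR adjusted p = 0.107 and 0.232 with the block, 0.131 and 0.166 with none). Genes under 1 CPM, such as COL1A2, rest on few reads.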
